A study of Mus musculus with 9 samples.

Results

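The Nduf genes encode the nuclear subunits of mitochondrial complex I and the factors that assemble it. They were followed in RNA from mouse tibialis anterior, a fast muscle of the hind limb, taken after injury. Every protein-coding gene whose name begins with Nduf was taken, which gave 46 of the 22046 protein-coding genes and of the 54532 genes in the deposited table. Of these, 36 were structural subunits and 8 were Ndufaf assembly factors. The remaining 2, Ndufa4 and Ndufa4l2, carry the family name, but NDUFA4 is now placed with complex IV. All 46 passed the filter on low values, which asked for 0.5 FPKM and for 10 reads, each in 3 or more libraries. FPKM is reads scaled by gene length and by library size, so levels of different genes are compared here per length.

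There were 3 groups with 3 libraries each. Young wild-type mice were 4 to 6 months old and old wild-type mice 24 months old. The old P311-/- mice carry a deletion of P311, whose gene symbol is Nrep, and the labels name no Cre or cell type for it; how many months old they were, how the muscle was injured and how long before sampling is not given in the sources used here. There was no uninjured muscle among these libraries and no young P311-/- group, so age and genotype are compared within injured muscle. The labels do not say whether libraries came from separate animals, so a p-value here reflects spread among libraries, which may be technical only.

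Complex I, NADH:ubiquinone oxidoreductase, is the entry point for most electrons of the respiratory chain. Its N module, at the tip of the arm that reaches into the matrix, oxidises NADH, and its Q module passes the electrons on to ubiquinone. The membrane arm, with a proximal and a distal part, pumps protons. Catalytic core subunits are shared with bacteria, and accessory subunits surround and stabilise them. Part of the core is encoded by mitochondrial DNA, so the enzyme needs products of both genomes and dedicated assembly factors that leave the finished complex. In muscle its amount differs between oxidative and glycolytic fibres.

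Reads recovered from the table numbered 14222204 to 31910890 per library. Nrep stood at 86.3, 72.6 and 63.9 FPKM in young wild type and at 72.4, 71.4 and 83.1 FPKM in old wild type. In the libraries labelled P311-/- it stood at 14.8, 6.37 and 9.72 FPKM, below every wild-type library. Markers of muscle fibres were high: 12 myofibre markers such as Ckm and Acta1 summed to 51072 to 73547 FPKM per library, and 8 oxidative fibre markers to 116 to 385 FPKM. In this bulk tissue, fewer cells of a type and less RNA per cell cannot be told apart.

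Nduf transcripts took 0.748%, 0.685% and 0.614% of the reads in young wild type. They took 0.783%, 0.873% and 0.939% in old wild type and 0.715%, 0.707% and 0.595% in old P311-/-. The old wild-type libraries thus gave the highest shares, with no overlap with either other group, while the other groups overlapped. Reads from mitochondrial genes, which also enter the library total, ranged over 8.79% to 10.7% in the young libraries, 13.2% to 17.6% in those of old wild type and 9.47% to 14.1% in those of old P311-/-. Their part in the Nduf results was not tested, but all Nduf fold changes below were also computed on totals without those reads.

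**Figure D1:**
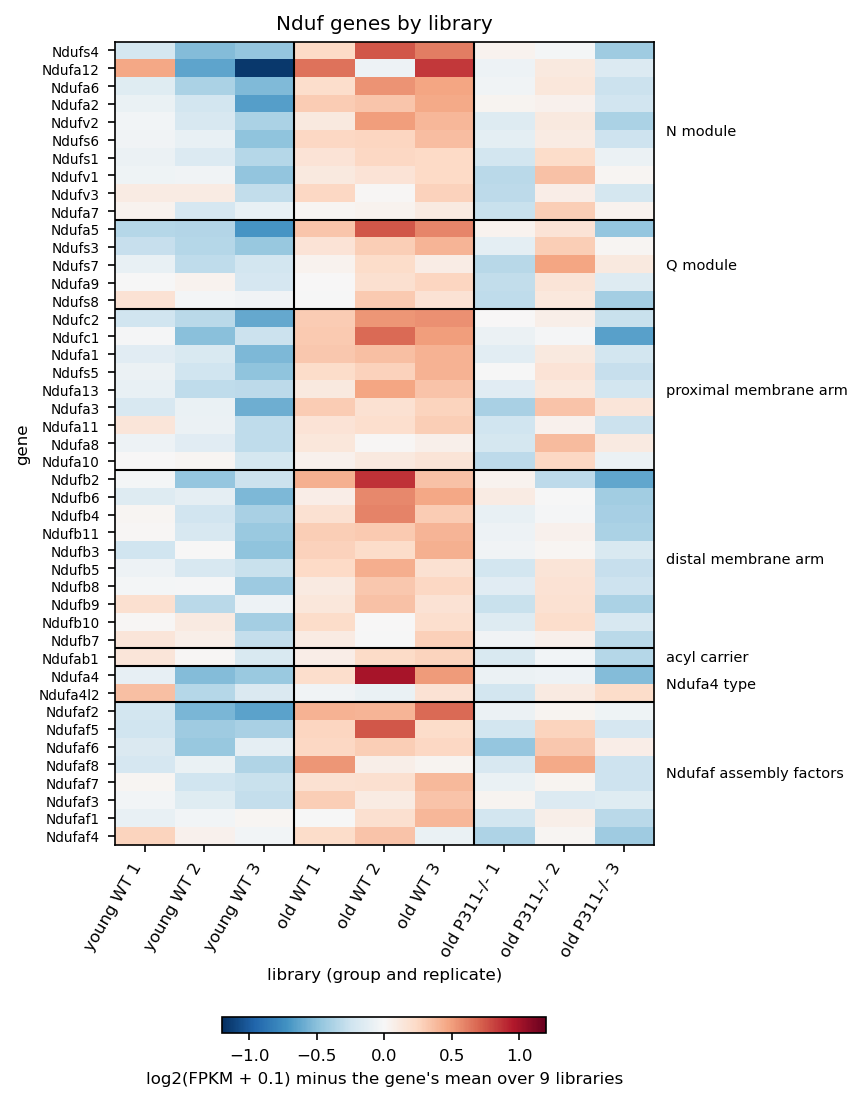
Each row is 1 of 45 of the 46 Nduf genes, ordered by module, and each column 1 of the 9 libraries; the colour is log2(FPKM + 0.1) minus the gene's mean over the 9 libraries, with red above and blue below it. The old wild-type columns are red in most rows, young wild-type replicate 3 is the lowest young library for 35 of all 46, and old P311-/- replicate 2 the highest of its group for 41.

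Levels differed widely between subunits of the same enzyme. Mean FPKM over the 9 libraries was 4.10 for Ndufb2, the lowest structural subunit, and 248 for Ndufb11, with a median of 105 over the 36. The deposited length of Ndufb2 was 5628 bases, against a median of 1635 over the structural subunits, and its value per length scales with that choice of gene model. Assembly factors were lower, from 2.87 FPKM for Ndufaf2 to 33.1 FPKM for Ndufaf1, with a median of 13.6. Ndufa4, at 409 FPKM, stood above every nuclear complex I subunit, and Ndufa4l2 stood at 9.93 FPKM. Within the modules the median was 80.2 FPKM for the 10 genes of the N module and 155 FPKM for the 6 of the Q module. The 9 genes of the proximal membrane arm had a median of 114 FPKM and the 10 of the distal arm one of 81.9 FPKM. Ndufab1, the mitochondrial acyl carrier protein, which also serves fatty acid synthesis, stood at 21.05 FPKM.

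Promoters of 4 of these genes are shown because they belong to subunits at both ends of the age difference described below. Ndufa5, Ndufs4 and Ndufa6 rose in old muscle, and Ndufs8 gave the smallest difference of any structural subunit. Each run is the RefSeq window of GRCm38.p6 from 250 bases before to 50 bases after the start, in the direction of the gene. Capitals mark matches, on either strand, to GCGCANGC (NRF1) in Ndufa5 and Ndufa6, to AAGATGG (YY1) in Ndufs4 and to CCGGAAG (GABPA) in Ndufs8.
Ndufa5, GRCm38.p6, chr6:24527477-24527776, minus strand: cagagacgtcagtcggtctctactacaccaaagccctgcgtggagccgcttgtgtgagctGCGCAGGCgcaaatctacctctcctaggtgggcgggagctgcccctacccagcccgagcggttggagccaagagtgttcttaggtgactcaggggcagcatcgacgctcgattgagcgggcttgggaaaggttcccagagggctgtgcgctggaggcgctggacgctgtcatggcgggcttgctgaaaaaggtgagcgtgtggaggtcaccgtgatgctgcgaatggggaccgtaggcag
Ndufs4, GRCm38.p6, chr13:114388045-114388344, minus strand: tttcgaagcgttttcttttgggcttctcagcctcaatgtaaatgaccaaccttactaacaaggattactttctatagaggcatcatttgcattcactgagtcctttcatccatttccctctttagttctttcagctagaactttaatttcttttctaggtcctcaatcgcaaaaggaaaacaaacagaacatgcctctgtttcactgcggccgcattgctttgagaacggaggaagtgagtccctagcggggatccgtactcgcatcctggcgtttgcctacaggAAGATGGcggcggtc
Ndufa6, GRCm38.p6, chr15:82354242-82354541, minus strand: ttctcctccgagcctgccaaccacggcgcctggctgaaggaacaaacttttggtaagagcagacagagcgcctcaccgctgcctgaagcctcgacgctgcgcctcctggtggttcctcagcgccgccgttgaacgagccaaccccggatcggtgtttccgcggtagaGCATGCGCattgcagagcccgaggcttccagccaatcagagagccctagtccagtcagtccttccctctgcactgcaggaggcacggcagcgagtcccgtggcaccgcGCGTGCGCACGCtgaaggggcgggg
Ndufs8, GRCm38.p6, chr19:3912725-3913024, minus strand: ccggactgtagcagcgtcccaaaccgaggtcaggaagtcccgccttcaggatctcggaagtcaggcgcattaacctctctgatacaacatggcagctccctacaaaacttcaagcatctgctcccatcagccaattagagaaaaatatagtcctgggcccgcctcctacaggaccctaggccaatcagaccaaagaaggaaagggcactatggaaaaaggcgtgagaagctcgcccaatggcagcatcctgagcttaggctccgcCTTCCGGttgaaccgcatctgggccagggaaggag

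NRF1, GABPA and YY1 are transcription factors known to bind promoters of respiratory chain genes. A window was matched by symbol for 40 of the 46 Nduf genes, with 42 windows in all, since a gene can have several starts. The NRF1 letters stood in 11 of 40 genes, 27.5%, against 11.2% of the 27025 genes with a window and 21.5% of those tested. The YY1 letters stood in 8 of 40, 20%, against 7.28% of all and 8.37% of tested genes. The GABPA letters stood in 6 of 40, 15%, against 9.93% and 19.3%, and AAGGTCA, the ERRA half-site, in 3 of 40, 7.5%, against 5.38% and 4.15%. In 16 Nduf genes none of the motifs was found. In the Ndufa6 window 2 of the 3 NRF1 matches overlap. The motifs were chosen after the expression values were known, and a match is only a match of letters.

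In old compared with young wild-type muscle, the log2 fold change was above 0 for 46 of 46 Nduf genes, where 50.4% of all 14233 genes tested were above 0. Of these, 10 passed at an adjusted p under 0.05 with limma, all higher, against a background of 3.39% of genes called higher and 2.01% called lower. They were 7 of 36 structural subunits (Ndufc2, Ndufs4, Ndufa5, Ndufa6, Ndufs3, Ndufa1 and Ndufa2), 2 of 8 assembly factors (Ndufaf2 and Ndufaf5), and Ndufa4. At an unadjusted p under 0.05, 28 of 46 were higher, against 13.9% of all genes. In 34 of 46 every old library lay above every young one, against 19% of all genes. The median log2 fold change was 0.51 over structural subunits and 0.42 over assembly factors, beside 0.00496 over all genes tested. These 36 and 8 medians describe genes measured in the same libraries, which are not independent of each other.

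The count of calls rested on single libraries more than the direction did, and it moved with the count over all genes, which was 768 here. Without young wild-type replicate 1, 2 or 3, or without old wild-type replicate 2 or 3, 0 of 36 structural subunits and 0 of 8 assembly factors passed, and these fits called 0 to 14 of all 14233 genes. Without old P311-/- replicate 1, which enters only the estimate of the spread, 14 and 4 passed, among 1755 genes (12.3%). After the trend of the fold changes with GC content and gene length over all genes was removed, 0 and 0 passed, with 13 of all 14219 genes, and the structural median was 0.38, with 36 of 36 above 0.

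**Figure D2:**
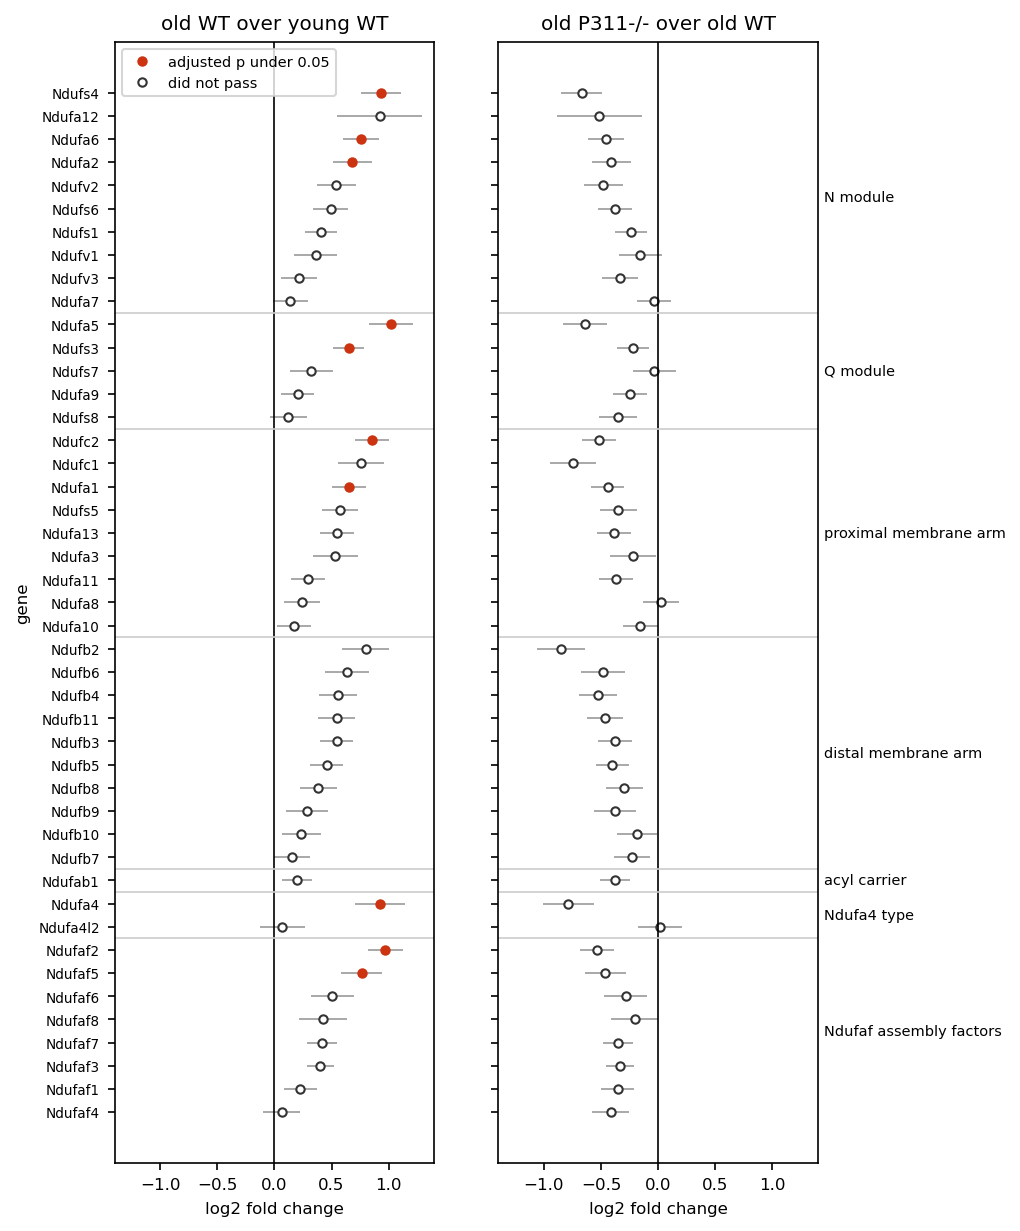
Points are log2 fold changes on log2(FPKM + 0.1) for 45 of the 46 Nduf genes by module, with bars of 1 standard error; the left panel compares old with young wild type and the right panel old P311-/- with old wild type, and filled points passed an adjusted p under 0.05. All 45 points lie right of 0 in the left panel, 10 of them filled, and 43 lie left of 0 in the right panel, none filled.

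In the N module, 3 of 10 genes rose with age, against 3.39% of all genes called higher. The module's median was 0.52. Ndufs4, an accessory subunit that holds the N module on the matrix arm, gave 63.2, 50.9 and 53.2 FPKM in young wild type, 86.7, 123 and 112 FPKM in old wild type and 75.3, 72.3 and 54.7 FPKM in old P311-/-. Every old wild-type library was above all 6 others. It was 1.91-fold higher in old than in young wild type, a log2 fold change of 0.93 ± 0.18 (SE, n = 3 per group; limma, adjusted p = 0.0308). Ndufa6, a small LYR-motif protein that binds the acyl carrier, gave 106, 89.5 and 80.8 FPKM in young, 135, 169 and 162 FPKM in old wild type and 114, 128 and 97.6 FPKM in old P311-/-. The old wild-type libraries again stood clear of both other groups, with a log2 fold change over young of 0.76 ± 0.16 (limma, adjusted p = 0.0354). Ndufa2, which has a thioredoxin-like fold, gave 225, 204 and 149 FPKM in young and 294, 298 and 324 FPKM in old wild type, and 243, 246 and 202 FPKM in old P311-/-. Its log2 fold change with age was 0.68 ± 0.17 (limma, adjusted p = 0.0490), the closest of the calls to the threshold, and 11.5% of its exonic bases overlap the antisense gene Tmco6.

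The catalytic subunits of the N module did not pass. Ndufv1, which binds NADH and flavin mononucleotide, gave 118, 119 and 88.7 FPKM in young and 133, 137 and 145 FPKM in old wild type, a log2 fold change of 0.36 ± 0.19 (limma, adjusted p = 0.247). Ndufs1, the largest iron-sulphur subunit, gave 48.9, 46.1 and 40.7 FPKM in young and 57.8, 61.2 and 60.7 FPKM in old wild type, 0.41 ± 0.14 on the log2 scale (adjusted p = 0.104). For both genes the wild-type groups did not overlap, although the test was missed. Ndufv2, the other iron-sulphur subunit beside the flavin, gave 0.54 ± 0.17 (adjusted p = 0.0855). Ndufv3, the lowest of the module by level, gave 35.1, 35.3 and 26.7 FPKM in young and 39.2, 33.2 and 39.9 FPKM in old wild type, where the groups overlapped. Ndufa12 had the second largest difference of the module, 0.92, with an SE of 0.37 and an adjusted p of 0.155 with limma, and its young libraries spread from 21.8 to 67.3 FPKM. Of its 50-base stretches, 17.7% are found also in the transcripts of Gm15920, so part of its reads cannot be assigned with certainty.

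In the Q module, 2 of 6 genes rose, against 3.39% of all genes called higher. The median was 0.26, with the subunits falling at both ends of the range. Ndufa5, an accessory subunit present from the earliest Q-module intermediate, gave 132, 130 and 102 FPKM in young, 210, 280 and 251 FPKM in old wild type and 172, 187 and 121 FPKM in old P311-/-. It was 2.03-fold higher in old wild type, the largest log2 fold change of all Nduf genes at 1.02 ± 0.20 (SE, n = 3 per group; limma, adjusted p = 0.0308). Ndufs3, a core subunit of the Q module, gave 78.9, 75.3 and 69.5 FPKM in young, 107, 117 and 127 FPKM in old wild type and 88.3, 117 and 97.2 FPKM in old P311-/-. Its log2 fold change with age was 0.65 ± 0.14 (limma, adjusted p = 0.0365), and it was the only one of the 7 nuclear core subunits to pass. Of its 50-base stretches, 17.9% also stand in other genes' transcripts, chiefly Gm12251.

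Ndufs7 and Ndufs8, which carry the last iron-sulphur clusters before ubiquinone, did not pass. Ndufs8 gave 172, 151 and 148 FPKM in young, 152, 189 and 172 FPKM in old wild type and 124, 167 and 115 FPKM in old P311-/-, and at 0.12 ± 0.16 it was the lowest structural subunit (adjusted p = 0.670). Ndufs7 gave 0.32 ± 0.19 (adjusted p = 0.307). Ndufa9, an accessory subunit at the junction with the membrane arm, gave 94.2, 97.8 and 82.6 FPKM in young and 95.1, 108 and 113 FPKM in old wild type, with overlap. Over the 7 nuclear core subunits the median was 0.36 with 1 called, and over the 29 accessory subunits 0.55 with 6 called. That difference was not tested. Over all genes, 3.39% were called higher.

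In the proximal membrane arm, 2 of 9 genes rose, against 3.39% of all genes called higher. For 9 of 9 all old wild-type libraries lay above all young ones, against 19% of all genes. The median was 0.55. Ndufc2, a small membrane subunit, gave 81.4, 76.8 and 63.0 FPKM in young, 119, 139 and 141 FPKM in old wild type and 96.7, 101.2 and 79.9 FPKM in old P311-/-. It had the smallest p of the structural subunits, with a log2 fold change of 0.85 ± 0.15 (limma, adjusted p = 0.0307), and its old wild-type libraries were above all others. Ndufa1, a single-span membrane subunit encoded on the X chromosome, gave 101.5, 98.1 and 76.7 FPKM in young, 139, 143 and 149 FPKM in old wild type and 102, 121 and 95.7 FPKM in old P311-/-. Its log2 fold change with age was 0.65 ± 0.15 (adjusted p = 0.0400), with old wild type again above both other groups.

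Ndufc1, the partner of Ndufc2 in name and place, missed the test at 0.75 ± 0.20 (limma, adjusted p = 0.0580). It gave 106, 75.4 and 89.4 FPKM in young, 133, 171 and 151 FPKM in old wild type and 102, 106 and 67.8 FPKM in old P311-/-. Here too the old wild-type libraries were the highest 3. Ndufa13, also known as GRIM-19, was the most abundant gene of the arm, with 171, 147 and 146 FPKM in young and 197, 252 and 231 FPKM in old wild type, though 30.0% of its exonic bases overlap the antisense gene Tssk6. Ndufa10, which has the fold of a nucleoside kinase, was the least abundant, with 77.0, 77.9 and 66.2 FPKM in young and 79.6, 83.3 and 85.6 FPKM in old wild type. Both had log2 fold changes that did not pass, 0.55 ± 0.15 (adjusted p = 0.0593) and 0.17 ± 0.15 (adjusted p = 0.506).

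In the distal membrane arm, 0 of 10 genes passed with limma, against 3.39% of all genes called higher. At an unadjusted p under 0.05, 7 of 10 were higher, against 13.9% of all genes, and the median was 0.50. Ndufb2 gave 3.82, 2.80 and 3.25 FPKM in young, 5.27, 7.18 and 5.01 FPKM in old wild type and 4.01, 3.11 and 2.49 FPKM in old P311-/-, from 263 to 681 reads per library. The old wild-type libraries were again the highest 3, and the log2 fold change with age was 0.80 ± 0.21 (limma, adjusted p = 0.0557). Ndufb11, an X-linked subunit and the most abundant of this arm, gave 246, 213 and 178 FPKM in young, 299, 303 and 322 FPKM in old wild type and 233, 253 and 188 FPKM in old P311-/-. Of its 50-base stretches, 17.5% also stand in other genes' transcripts. Its difference of 0.55 ± 0.16 had an adjusted p of 0.0745. Ndufab1 gave 23.1, 21.04 and 18.3 FPKM in young and 22.1, 24.5 and 25.1 FPKM in old wild type, with overlap and a log2 fold change of 0.20 ± 0.13 (adjusted p = 0.361).

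Of Ndufa4 and its paralogue Ndufa4l2, 1 passed, against 3.39% of all genes called higher. Ndufa4 gave 360, 270 and 284 FPKM in young, 447, 763 and 551 FPKM in old wild type and 368, 369 and 269 FPKM in old P311-/-. Old wild type was above all other libraries, with a log2 fold change over young of 0.92 ± 0.22 (limma, adjusted p = 0.0471). Ndufa4l2, known as a target of the hypoxia-inducible factor, gave 12.7, 7.70 and 8.69 FPKM in young, 9.51, 9.31 and 11.1 FPKM in old wild type and 8.39, 10.6 and 11.5 FPKM in old P311-/-. All 3 groups overlapped, and its log2 fold change with age was 0.07 ± 0.19 (adjusted p = 0.847).

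**Figure D3:**
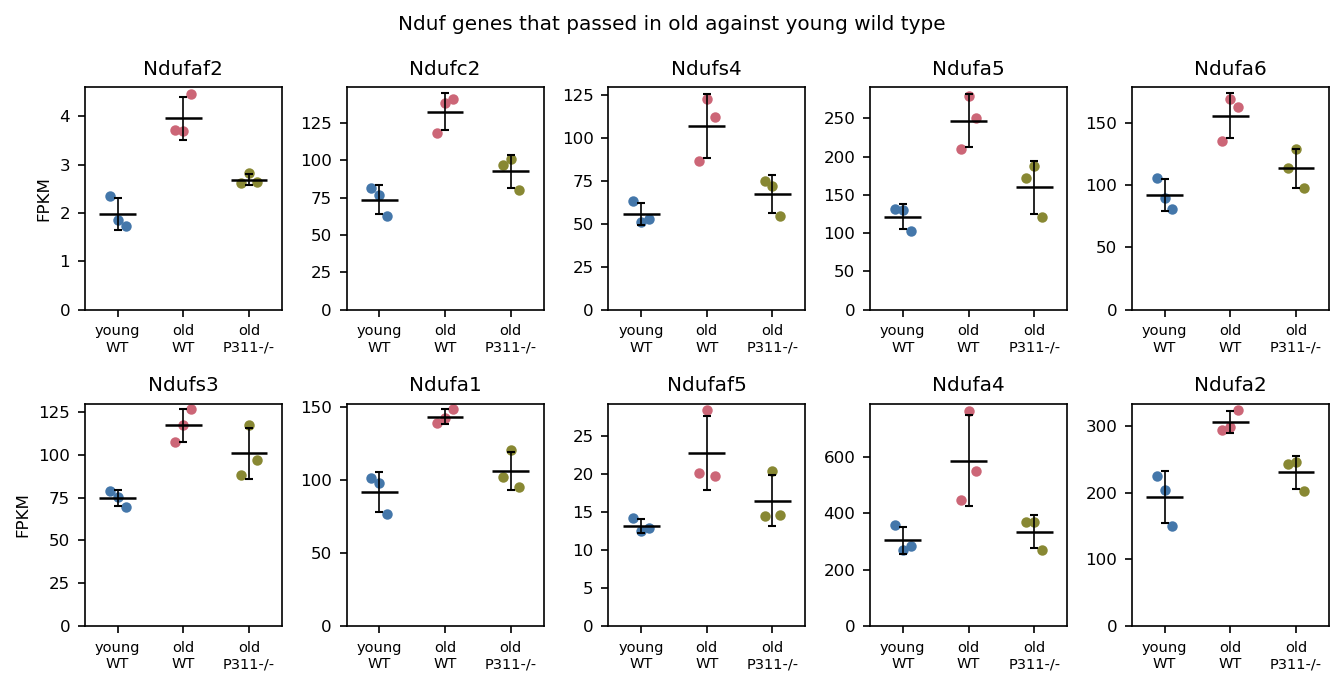
Points are FPKM of single libraries for the 10 Nduf genes that passed in old against young wild type, with the group mean as a line and bars of 1 SD (n = 3 libraries per group); each vertical axis starts at 0. In each panel the old wild-type mean is the highest and the old P311-/- mean lies between the other 2 groups.

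Among the 8 assembly factors, 2 rose with age, against 3.39% of all genes called higher. Ndufaf2, a late chaperone that binds where the N module joins, gave 2.35, 1.85 and 1.73 FPKM in young, 3.71, 3.69 and 4.46 FPKM in old wild type and 2.61, 2.82 and 2.64 FPKM in old P311-/-. The 3 groups did not overlap in any pair, and the log2 fold change with age was 0.97 ± 0.15 (limma, adjusted p = 0.0301), the smallest p of all Nduf genes. It rests on 92 to 321 reads per library, and 65.6% of its exonic bases overlap the antisense gene B230220B15Rik; the use of strand in counting is not given in the sources used here, so these reads may belong to either gene. Ndufaf5, which hydroxylates an arginine of Ndufs7, gave 14.3, 12.5 and 12.9 FPKM in young, 20.2, 28.5 and 19.8 FPKM in old wild type and 14.5, 20.4 and 14.7 FPKM in old P311-/-. Its log2 fold change with age was 0.76 ± 0.18 (adjusted p = 0.0454), with no overlap between the wild-type groups.

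The other 6 assembly factors did not pass. Ndufaf8, the partner that stabilises Ndufaf5, gave 17.1, 18.7 and 15.3 FPKM in young, 28.5, 20.7 and 20.2 FPKM in old wild type and 17.2, 27.0 and 16.6 FPKM in old P311-/-. Ndufaf7, a methyltransferase, gave 6.07, 5.06 and 4.95 FPKM in young, 6.82, 6.87 and 7.88 FPKM in old wild type and 5.68, 6.13 and 5.04 FPKM in old P311-/-. Both had wild-type groups apart, with log2 fold changes of 0.43 ± 0.21 (limma, adjusted p = 0.223) and 0.42 ± 0.13 (adjusted p = 0.0862). Ndufaf6, an early factor, gave 14.4, 11.9 and 15.2 FPKM in young, 19.4, 20.0 and 19.3 FPKM in old wild type and 11.8, 20.5 and 17.2 FPKM in old P311-/-, also apart between the wild-type groups (0.51 ± 0.19, adjusted p = 0.132).

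Ndufaf3 and Ndufaf4, which work together on the Q module, are given together. Ndufaf3 gave 9.13, 8.44 and 7.64 FPKM in young, 11.5, 10.04 and 11.9 FPKM in old wild type and 9.58, 8.35 and 8.44 FPKM in old P311-/-. Ndufaf4 gave 12.4, 10.7 and 10.1 FPKM in young, 12.03, 13.1 and 9.77 FPKM in old wild type and 7.98, 10.5 and 7.65 FPKM in old P311-/-. The log2 fold changes with age were 0.40 ± 0.12 (limma, adjusted p = 0.0786) and 0.06 ± 0.16 (adjusted p = 0.833), the latter the lowest of all 46; their difference was not tested. Ndufaf1, of the assembly complex for the membrane arm, gave 30.8, 32.1 and 33.3 FPKM in young, 32.6, 37.4 and 43.4 FPKM in old wild type and 28.2, 34.4 and 26.1 FPKM in old P311-/-, with overlap (0.23 ± 0.15, adjusted p = 0.347).

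In old P311-/- compared with old wild-type muscle, 0 of 46 Nduf genes passed with limma, against 0.0703% of all genes called in either direction. The log2 fold change was below 0 for 44 of 46, where 50.4% of all genes were below 0. At an unadjusted p under 0.05, 25 of 46 were lower (18 of 36 structural subunits, 6 of 8 assembly factors and Ndufa4), against 8.54% of all genes. In 21 of 46 every P311-/- library lay below every old wild-type library, against 9.39% of all genes. The median was -0.38 over structural subunits and -0.35 over assembly factors, beside -0.00386 over all genes. This comparison shares the old wild-type libraries with the comparison of ages, so a high value in them enters both with opposite sign.

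The smallest p-values belonged to Ndufb2, Ndufs4, Ndufc1 and Ndufa4, whose libraries are given above. Ndufb2 had a log2 fold change of -0.85 ± 0.21 (limma, adjusted p = 0.242), 0.555 times the old wild-type level. Ndufc1 had -0.74 ± 0.20 and Ndufs4 -0.67 ± 0.18 (adjusted p = 0.243 for each), and Ndufa4 had -0.79 ± 0.22 (adjusted p = 0.253). In each of these 4 genes all P311-/- libraries were below all old wild-type libraries. At the other end, Ndufa8, a proximal-arm subunit with twin cysteine motifs, gave 130, 195 and 162 FPKM in P311-/- and 165, 151 and 157 FPKM in old wild type, with 0.02 ± 0.16 (adjusted p = 0.956). Ndufs7 and Ndufa7 lay near 0 as well, at -0.03 and -0.04. The 7 core subunits had a median of -0.22 and the 29 accessory subunits one of -0.38, a difference that was not tested.

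The P311-/- libraries differed among themselves. Replicate 2 was the highest of its group for 41 of 46 Nduf genes and replicate 3 the lowest for 30. Relative to each gene's young wild-type mean, the structural subunits had a median log2 difference of 0.03, 0.33 and -0.02 in P311-/- replicates 1, 2 and 3. The old wild-type libraries had 0.36, 0.47 and 0.53, so P311-/- replicate 2 came close to old wild-type replicate 1. P311-/- replicate 2 also had the highest mitochondrial read share of its group, 14.1%, and the lowest ratio of the authors' library size to recovered reads, 0.873. In P311-/- replicates 1, 2 and 3, leukocyte markers summed to 1589, 682 and 932 FPKM. Fibroblast and matrix markers summed to 1357, 669 and 783 FPKM. Myofibre markers summed to 57618, 73547 and 66173 FPKM, and oxidative fibre markers to 169, 288 and 385 FPKM. The part of any of these was not tested. Without replicate 2 the structural median was -0.46, and 36 of 36 were below 0. Without replicate 1 the median was -0.35, and Ndufb2, Ndufs4, Ndufc1, Ndufc2 and Ndufa4 passed, at adjusted p-values from limma of 0.0165, 0.0316, 0.0371, 0.0492 and 0.0479. That fit called 1875 of all 14233 genes in either direction, 13.2%, of which 992 were higher. All 5 Nduf genes were lower. With weights for library quality, which were 0.270, 0.687 and 2.54 for P311-/- replicates 1, 2 and 3, 25 Nduf genes passed as lower. Over all genes, 2720 were called in either direction, 19.1%, of which 1330 were higher. In that fit replicate 3 counts most within its group.

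Between old P311-/- and young wild type, 0 of 46 Nduf genes passed with limma, against 0.4% of all genes called in either direction. The log2 fold change was above 0 for 36 of 46, where 51.6% of all genes were above 0, and the medians were 0.13 for structural subunits and 0.14 for assembly factors. Without P311-/- replicate 2 they were 0.0083 and 0.026, with 18 of 36 structural subunits above 0, and without young replicate 3 they were 0.033 and 0.080, with 21 of 36 above 0. Without P311-/- replicate 3 the structural median was 0.20, and with totals outside mitochondrial reads it was 0.0029. At an unadjusted p under 0.05, 2 of 46 differed, against 21.4% of all genes. These were Ndufs3 at 0.43 ± 0.14 (limma, adjusted p = 0.138) and Ndufaf2 at 0.44 ± 0.15 (limma, adjusted p = 0.156). The groups did not overlap, with P311-/- higher, in 3 of 46, against 11.6% of all genes. Scaling by total recovered reads put the median of all genes at -0.13 here and at -0.12 in old against young wild type, and left 17 of 36 structural subunits above 0 here and 35 of 36 above 0 in old against young wild type. Over the 3 groups, the old wild-type mean was the highest for 43 of 46 genes. The P311-/- mean lay between the wild-type means for 33, under the young mean for 10, and above both for 3.

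The size of the difference varied with base composition among the subunits. GC content of the transcripts ran from 44.1% to 60.4%. The 18 structural subunits of lower GC content, up to 51.7%, had a median log2 fold change with age of 0.65, and they held all 7 structural calls. The 18 of higher GC content, from 52.1%, had a median of 0.29 and 0 calls. Spearman's rho between GC content and the fold change was -0.52 across the 36 genes and -0.36 across 14219 genes tested. In old P311-/- against old wild type it was 0.59 across the 36 and 0.40 across all, so the genes lowest there were again those of low GC content. These are descriptions across genes that share the same libraries, and the comparisons share the old wild-type libraries. Gene length also varied with the fold change, with rho of -0.28 across the 36 and -0.25 across all genes with age. In old P311-/- against old wild type rho with length was 0.16 and 0.19. The median length was 1635 bases for the 36 and 3839 bases for all genes, and the median GC content 51.9% and 50.1%. With the trends over all genes with GC content and gene length removed together, rho with GC content among the 36 was -0.14 and 0.08. The parts of GC content and length were not separated. In that fit 17 of 36 were higher with age at an unadjusted p under 0.05, against 10.01% of all genes. There, 11 of 36 were lower in P311-/- than in old wild type, against 4.46% of all genes. None of the 36 passed after adjustment in that fit.

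**Figure D4:**
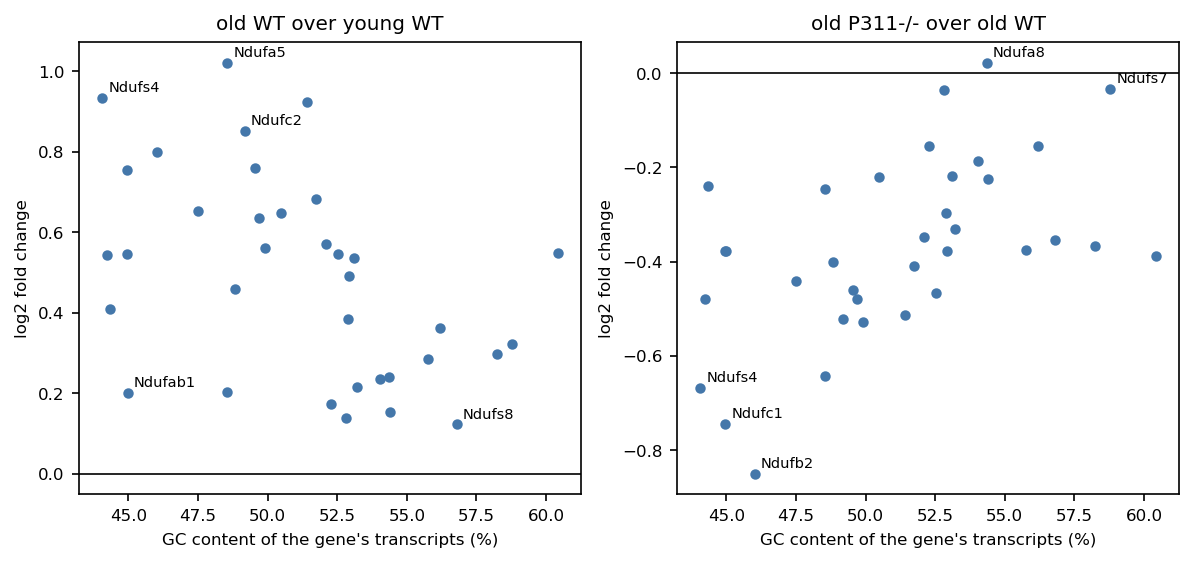
Each point is 1 of 35 of the 36 structural subunits, with the GC content of its transcripts in percent on the horizontal axis and its log2 fold change on the vertical axis, for old against young wild type on the left and old P311-/- against old wild type on the right. Subunits of low GC content such as Ndufs4 lie among the farthest from 0 in both panels, and Ndufs8 and Ndufs7, of high GC content, lie near 0 in one panel each.

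The complex I subunits encoded by mitochondrial DNA also stood higher in old wild type, but 0 of 7 passed with limma. All 7 were above 0, with a median of 0.81. At an unadjusted p under 0.05, 6 were higher, against 13.9% of all genes. mt-Nd1, at the heel of the membrane arm, gave 11636, 10280 and 11197 FPKM in young, 17257, 24207 and 17221 FPKM in old wild type and 11353, 21882 and 15293 FPKM in old P311-/-. The wild-type groups were apart, and P311-/- replicate 2 lay among the old wild-type values. mt-Nd3 had the smallest p between P311-/- and old wild type, with 44.5, 51.3 and 28.8 FPKM in P311-/- against 158, 441 and 1141 FPKM in old wild type. Its log2 fold change was -3.41 ± 0.66 (adjusted p = 0.212), and the young libraries spread from 78.9 to 245 FPKM. All libraries were made from polyadenylated RNA.

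Of 11 further assembly factors that do not carry the Nduf name, 2 rose with age: Tmem70 (0.69 ± 0.14; limma, adjusted p = 0.0331) and Tmem126a (0.78 ± 0.18; adjusted p = 0.0407), both of which act on the membrane arm. The median of this list was 0.13, with 8 of 11 above 0. Over all genes, 3.39% were called higher with age and 50.4% were above 0. In P311-/- against old wild type 0 of 11 passed, and the median was -0.14.

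The other respiratory complexes, from lists drawn up with earlier results of these data known, are set beside complex I. In old against young wild type, limma called 3.39% of all genes higher and 2.01% lower. Of complex II it called 0 of 4 genes and of complex III 1 of 9 (Uqcrb). Of complex IV it called 3 of 14 (Cox6c, Cox7a2 and Cox7b) and of complex V 3 of 14 (Atp5j, Atp5l and Atp5f1). All of these calls were higher. The medians of complexes II to V were 0.27, 0.38, 0.30 and 0.47, next to 0.51 for the structural Nduf subunits. Complexes II and IV were the lower ones. Cox7b gave the largest difference of these, 1.13 ± 0.22 (adjusted p = 0.0330), and Uqcrb 1.03 ± 0.20 (adjusted p = 0.0329). In P311-/- against old wild type 0 of 41 of these genes passed, with medians of -0.14, -0.45, -0.45 and -0.38 for complexes II to V, next to -0.38 for the structural subunits. No difference between the complexes was tested.

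**Figure D5:**
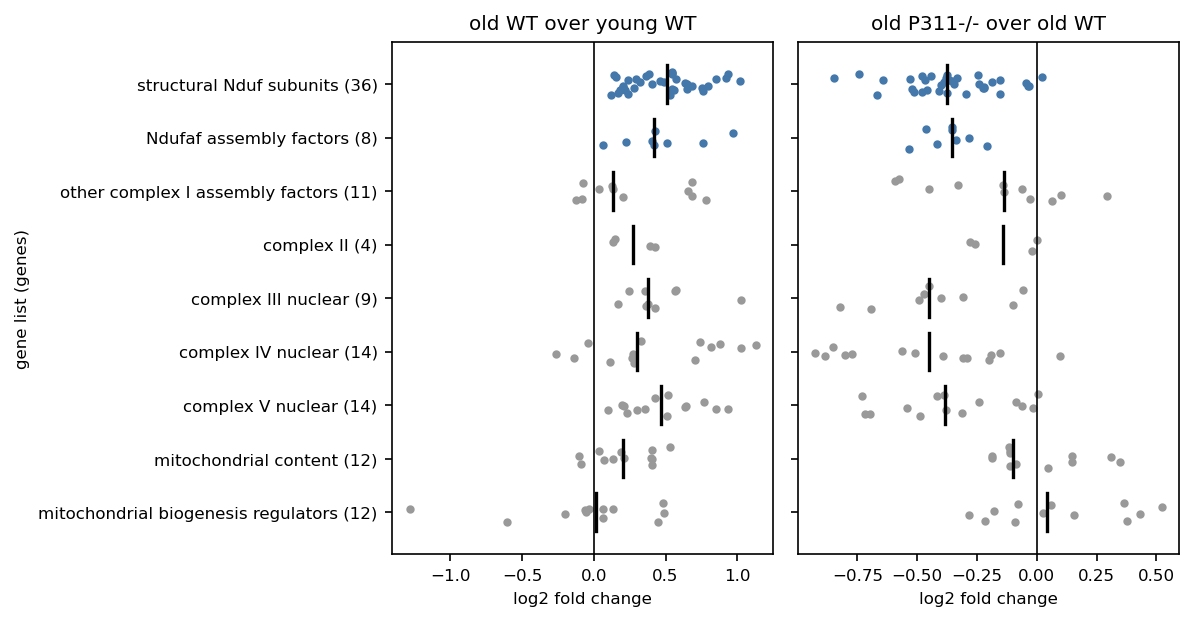
Points are log2 fold changes of single genes and black bars their list medians, for the structural subunits and Ndufaf factors in blue and 7 other lists in grey, with the number of genes in brackets; vertical scatter within a list carries no value. The median of complex V lies near that of the structural subunits in both panels, and the biogenesis regulators centre near 0.

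Genes of mitochondrial content and its regulators are given for comparison. Of 12 genes for mitochondrial content outside the respiratory chain, 0 passed with age, and the median was 0.20, with 10 of 12 above 0. At an unadjusted p under 0.05 with limma, 4 were higher, against 13.9% of all genes. In 6 every old wild-type library lay above every young one, against 19% of all genes. Cs, citrate synthase, stood at 0.07 ± 0.16. Of 12 regulators of mitochondrial biogenesis, Tfam, the packaging and transcription factor of mitochondrial DNA, rose (0.49 ± 0.11; limma, adjusted p = 0.0399). Ppargc1b, a coactivator of respiratory genes, fell, from 5.97, 6.09 and 5.02 FPKM in young to 1.98, 2.42 and 2.45 FPKM in old wild type (-1.28 ± 0.16; adjusted p = 0.0246). Ppargc1a stood at 0.06 ± 0.22. The regulators' median was 0.01 with age and 0.04 in P311-/- against old wild type. With age, 3.39% of all genes were called higher and 2.01% lower.

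Cell type markers also differed between the groups, and their part in the Nduf differences was not tested. With age, 3.39% of all genes were called higher and 2.01% lower. Of 12 leukocyte markers 0 passed with age and 11 were below 0, with a median of -0.42; they summed to 1463 to 2278 FPKM in young, 1193 to 1741 FPKM in old wild type and 682 to 1589 FPKM in old P311-/-. Of 8 fibroblast and matrix markers 2 fell and the median was -0.49; they summed to 1591 to 1796, 1105 to 1300 and 669 to 1357 FPKM. The sums of both lists reached their lowest values in P311-/- libraries, and both overlapped between the old groups. In P311-/- against old wild type the medians of these lists were -0.21 and -0.36, below 0 as with age, with 0 called. The 12 myofibre markers had medians of 0.16 with age, where 1 (Myh1, a fast myosin) fell, and of 0.15 in P311-/- against old wild type. The 8 oxidative fibre markers had medians of 0.15 and 0.66, with 0 called in either. They summed to 116 to 251 FPKM in young, 123 to 145 FPKM in old wild type and 169 to 385 FPKM in old P311-/-. The sum was thus higher in every P311-/- library than in every old wild-type one. In that comparison 7 of 8 were above 0 and 1 below, from -0.15 to 3.19, where 49.6% of all genes were above 0. No marker of these 4 lists was at 0 in every library. The 5 endothelial, 5 adipocyte and 5 tested satellite cell markers had medians of 0.12, 0.25 and -0.02 with age. In P311-/- against old wild type they had -0.18, 0.62 and -0.27, with 0 called in either comparison.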

How the data were processed

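Polyadenylated RNA of 9 muscle libraries, 3 per group by their labels, was measured by the authors. Per the submitters' processing notes, HISAT2 2.2.1, featureCounts 2.1.1, DESeq2 1.42.0 and build mm39 were named; the options, with the use of strand, are not given in these sources. Gene positions in the deposited table equal those of GENCODE M21 on GRCm38 for 53585 of 54495 shared identifiers (98.3%), so GRCm38 references were used. The deposited values are FPKM as the authors scaled them. The deposited gene lengths, the authors' other values, are in bases.

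FPKM times gene length gave whole reads for 100% of values (tolerance 0.001), which served for depth and filters. Differences were tested on log2(FPKM + 0.1) by limma 3.58.1 (R 4.3.3; trend, robust moderation), a scale that understates changes of low genes. All 9 libraries entered 1 fit of group means over 14233 genes, with Benjamini-Hochberg adjustment per comparison. The method was also run on simulated data, with noise drawn independently for each gene and library. Deviations shared by the genes of a library were not simulated, so that run is no check on the Nduf calls. Exonic overlap and shared 50-base stretches were computed from GENCODE M21, promoter motifs from RefSeq GRCm38.p6. Of the Nduf genes, 25 share some 50-base stretch with another gene and 10 share over 10%.

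The members and lists were chosen with earlier results of these data known. Genes given per library were, per comparison, up to 10 that passed with the smallest p (else 4), fixed key subunits, all Ndufaf genes, the highest and lowest of each module, and the extreme structural fold changes. Other genes from the pathway lists are those with the smallest p. Figures used matplotlib 3.10.9 under Python 3.11.15. The listed symbols Coa1, Atp5pb and Atp5o were not matched to 1 row, so no values are given under these symbols. For 1 member, counted in the groups, single values are not reported here. The 20 alternative settings are in the closing section.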

Additional observations from a re-analysis of the deposited data

How the results depend on the processing

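Over 20 alternative settings the medians of the structural subunits and assembly factors moved by less than 0.153 in each comparison, while the counts of calls moved. That value is the SD within groups of the library medians of the structural subunits. In P311-/- against young wild type the reported medians, 0.13 and 0.14, are themselves below it. There, total recovered reads as library size gave -0.020 and 0.00016. In old against young wild type, 7 structural subunits passed in the reported fit. The count was 0 with no filter on low values, with total recovered reads as library size, and with the GC and length trend removed; it was 3 with total reads outside mitochondrial genes (chosen after seeing the data), 12 with voom, 17 with only the 6 libraries compared and 20 with quality weights. Calls over all genes moved too, from 768 to 5, 346 and 13 in the first 3 of these fits and to 318, 1005, 1653 and 2290 in the others. Leaving out 1 library gave 0 to 14. For assembly factors, 2 in the reported fit, the count was 0 with no filter and with the trend removed, 1 with either total of reads, 5 with quality weights, and 0 to 4 leaving out 1 library. In P311-/- against old wild type, quality weights gave 18 structural subunits and 6 assembly factors, among 2720 of all genes called in either direction (19.1%). Leaving out 1 library gave 0 to 4 and 0 to 0. The 4, without P311-/- replicate 1, stood among 1875 called in either direction (13.2%). In P311-/- against young wild type, quality weights gave 1 and 1 (3173 of all genes), and leaving out 1 library 0 to 3 and 0 to 1, the 3 and 1 without P311-/- replicate 1 (2785 of all genes). The cause was not tested.

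With the replicate block, 0 structural subunits and 0 assembly factors passed in old against young wild type, and 0 of all genes. The replicate numbers are not stated to pair libraries, and same-numbered libraries of different groups correlated at -0.101 to 0.145 in their deviations from group means, so the block is not taken as pairing; not every library correlated best with its own number.

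Among the genes given by library, fold changes that changed sign all belonged to genes that did not pass. With age, Ndufs8 was -0.0117, Ndufaf4 -0.0698 and Ndufa4l2 -0.0632 with total recovered reads, and Ndufaf4 was -0.320 and Ndufaf1 -0.117 with the trend removed. Leaving out 1 library gave Ndufaf4 -0.0266 to 0.182 and Ndufa4l2 -0.0774 to 0.278. In P311-/- against old wild type, non-mitochondrial totals gave Ndufa8 -0.0446 and Ndufa4l2 -0.0483, and removing the trend gave Ndufa4l2 -0.0260. Leaving out 1 library gave Ndufa8 -0.121 to 0.173, Ndufv1 -0.322 to 0.0159 and Ndufa4l2 -0.0764 to 0.148. Over all structural subunits in that comparison, 1 of 36 was above 0 in the reported fit, 2 with the trend removed, 4 with quality weights and 5 without P311-/- replicate 1. Each of the 10 genes called with age passed in 7 to 12 of the 20 alternatives. Depth limits Ndufaf2 most, at 92 to 321 reads.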

Other observations

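The table holds 5 more rows with an Nduf name that are not listed as protein-coding. Ndufb1-ps, listed as a bidirectional promoter lncRNA at chr12:101968090-101977068 of GRCm38, gave 61.7, 48.8 and 44.9 FPKM in young wild type, 78.3, 110 and 102 FPKM in old wild type and 62.1, 60.01 and 37.4 FPKM in old P311-/-. Old wild type stood above all other libraries, with a log2 fold change over young of 0.90 ± 0.22 (limma, adjusted p = 0.0498) and of -0.88 ± 0.22 for P311-/- over old wild type (adjusted p = 0.243). The subunit gene Ndufb1 has a RefSeq promoter window within this span and no protein-coding row of its own among the members.

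Of the 4 rows listed as processed pseudogenes, Ndufab1-ps gave 37.1, 25.4 and 30.1 FPKM in young, 45.0, 41.5 and 46.4 FPKM in old wild type and 32.2, 33.5 and 28.4 FPKM in old P311-/-. Per length, it stood above its parent gene Ndufab1 in each library. The deposited length of Ndufab1 was 6883 bases, while Ndufab1-ps lies within chr7:80507787-80508254. This order in FPKM therefore rests on gene length and is not an order of reads. The log2 fold change of Ndufab1-ps with age was 0.54 ± 0.15 (limma, adjusted p = 0.0647), where Ndufab1 had 0.20. Ndufb4c and Ndufs6b stood at 0.04 ± 0.22 and 0.21 ± 0.43, and Ndufa11b was listed at 0 in all 9 libraries. Reads that fit a gene and its copy alike may be counted for either.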
